A study of Homo sapiens with 12 samples.

Results

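Collagens, laminins and integrins are the genes of the extracellular matrix and of its receptors, and all genes whose symbol follows the pattern of these families were taken. The pattern gave 80 members of the 20531 genes listed, of which 43 were collagen chains, 12 were laminin chains and 25 were integrin subunits. The pattern uses no measured value, although earlier results of these data were known when it was chosen. The measurements were RNAseq of SKBR-3, a human breast carcinoma line with amplified HER2 and no estrogen receptor, in 4 groups of 3 replicates. In 2 groups the siRNA pool was a non-targeting (NT) one, and in the other 2 it was directed at FOXA1, a forkhead transcription factor of luminal cells, for 48 h by the labels, whereas the methods give 24 h before the drug. DMSO or 300 nM lapatinib, which inhibits the kinases of HER2 and EGFR, followed for 24 h. All samples thus come from 1 cell line in culture, and the labels do not say whether the replicates were separate cultures, so the p-values measure only the spread between these samples, which may be technical.

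Collagen chains wind around each other into fibrils, sheets or short linkers, and collagens IV and XVIII belong to the basement membrane on which epithelial cells sit. Laminins are the other main basement membrane proteins, each a trimer of 1 alpha, 1 beta and 1 gamma chain that is put together inside the cell before secretion. Integrins are receptors of 1 alpha and 1 beta subunit that bind these proteins and connect them to the cytoskeleton, and they can act together with HER2 in breast cancer cells.

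Expected counts, which are estimated numbers of reads per gene, summed to between 25749578 and 32271850 (median 30542429) per library. FOXA1 was between 8307 and 8765 normalized counts with NT siRNA in DMSO and between 1160 and 1563 with FOXA1 siRNA, and in lapatinib it was between 12166 and 13173 and between 1641 and 2383. The 8 markers of luminal and HER2-amplified cells all had at least 10 counts in a library, CDH1 (E-cadherin) with no more than 19, and summed to between 12199 and 18558 TPM, a level scaled for transcript length and library size, per library. None of the 6 fibroblast markers reached 10 counts in any library, 1 of them was at 0 in all, and their sum was at most 0.33 TPM. The sums were between 1.74 and 6.35 TPM for 5 basal or myoepithelial markers, between 4.18 and 12.23 for 4 endothelial markers and between 15.61 and 43.03 for 4 leukocyte markers. The basal sum was between 1.74 and 3.69 TPM with NT siRNA and between 4.04 and 6.35 with FOXA1 siRNA. Most of the leukocyte sum was the widely expressed CD68, and this sum was higher in lapatinib than in DMSO with each siRNA, 28.45 to 39.04 against 15.61 to 25.82 TPM with NT siRNA. The endothelial sum, mostly CDH5, was 4.18 to 6.73 TPM with NT siRNA in lapatinib and 8.43 to 11.72 in DMSO. The part of these markers in the results was not tested. The libraries numbered 2 stood apart from numbers 1 and 3 in every group, with a chi-square of the counts of 12.1 to 17.6 per degree of freedom in pairs with number 2 and 3.62 to 5.68 in the other pairs, so counts of members are also given without them. In bulk samples, fewer cells of a type and less RNA per cell cannot be told apart.

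Of the 80 members, 50 had at least 10 counts in at least 1 library and were tested, namely 23 collagens, 8 laminins and 19 integrins. Only 29 of them had at least 10 counts in every library (11 collagens, 6 laminins and 12 integrins), and 3 passed through a single group. A member that reached 10 counts on only one side of a comparison was favored by this filter to differ there. The other 30 members reached at most 9 counts in any library, and 6 of these were at 0 in all 12 (COL5A3, COL8A1, COL19A1, COL20A1, ITGA8 and ITGAD). Among these 30 were the fibroblast collagens COL1A2 and COL3A1, at most 2 and 3 counts, and COL6A3, at most 7. Also below the minimum were LAMA1, LAMA2, LAMA4 and LAMC3 among the laminins and ITGA4, ITGA11, ITGAX and ITGB3 among the integrins.

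Levels of different genes were compared only per length, in TPM. Laminin RNA was concentrated in 3 chains, since LAMB1, LAMA5 and LAMB2 held 97.6% of the summed laminin TPM, with means over the 12 libraries of 169, 67.6 and 42.7. The integrin sum was spread more widely, with 60.9% in ITGB1, ITGB5 and ITGAV at means of 82.1, 57.9 and 57.5 TPM. COL18A1, COL5A2 and COL12A1 held 66.3% of the collagen sum, at means of 44.8, 16.3 and 13.6 TPM. ITGAE was also among the higher integrins at 22.5 TPM, but its deposited mean transcript length was only 690.1 bases against 2275 to 7854 for the other integrins named here, so its place rests on short transcripts. A mean of at least 10 TPM was reached by 3 collagens, 3 laminins and 8 integrins.

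**Figure D1:**
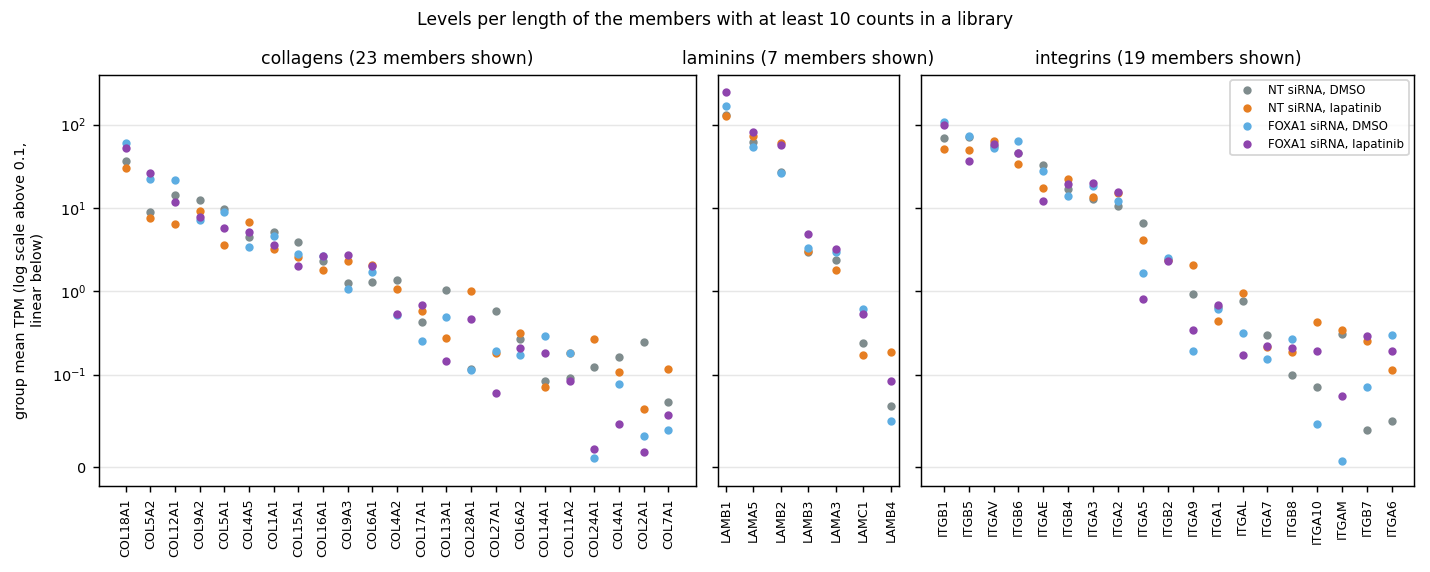
Group mean TPM (y axis, linear below 0.1 and logarithmic above) of 49 of the 50 members tested, ordered within each family by their mean over the 12 libraries, with 1 point for each of the 4 groups. A few genes carry each family, with means of 169 TPM for LAMB1, 82.1 for ITGB1 and 44.8 for COL18A1, and many members lie near 0.

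Several partners within a trimer or a receptor were at very unequal levels, and others were close. LAMB1 was at 112 to 256 TPM across the libraries, whereas LAMC1, the gamma chain of most laminins, was at 0.12 to 0.71 TPM. LAMB3 and LAMA3, chains of laminin-332, were close to each other, with means of 3.56 and 2.59 TPM. ITGB4, whose only known partner is ITGA6, was at 12.1 to 26.1 TPM and ITGA6 at 0.01 to 0.78. COL1A1 was at 2.74 to 5.58 TPM and its partner COL1A2 at no more than 0.37. The chains of collagen V were also close in control cells, with mean COL5A1 and COL5A2 levels in NT siRNA and DMSO of 9.75 and 9.0 TPM.

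The summed TPM of the families moved in different ways across the 4 groups. For the laminins it was 219, 244.8 and 215.7 with NT siRNA in DMSO, 261, 301 and 238 with NT siRNA in lapatinib, 253, 252 and 259 with FOXA1 siRNA in DMSO, and 399.9, 390.9 and 400.3 with FOXA1 siRNA in lapatinib, values being given here and below in the order of replicates 1 to 3. The laminin sums with FOXA1 siRNA and lapatinib lay above those of every other group. For the collagens the group means were 106 ± 8.07 and 81.0 ± 4.55 (SD, n = 3 here and below) with NT siRNA in DMSO and lapatinib, and 139 ± 11.7 and 125 ± 18.1 with FOXA1 siRNA. For the integrins they were 328 ± 20.9 and 279 ± 15.8 with NT siRNA, and 376 ± 12.9 and 314 ± 15.2 with FOXA1 siRNA. With NT siRNA the collagen and integrin sums were lower in lapatinib than in DMSO without overlap, whereas the laminin sums were 226 ± 15.9 and 267 ± 31.9 and overlapped. No test was made of these sums.

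Differences between groups were tested by the quasi-likelihood test of edgeR, without pairing by replicate number unless a block is named. Every adjusted p is adjusted by Benjamini-Hochberg over the 14012 genes tested. A gene was said to rise or fall at an adjusted p under 0.05. Genes that also changed 2-fold or more (a log2 fold change of 1 or above, or of -1 or below), as the study required, are counted separately as past the higher threshold. Log2 fold changes are given as value ± standard error, and a value in parentheses with an adjusted p is a log2 fold change.

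The first question was what lapatinib did to the matrix and receptor genes of control cells. LAMB2, the laminin beta 2 chain, rose with lapatinib, COL5A1 and COL12A1 fell, and the integrins divided, with ITGA2 and ITGA9 higher and ITGB1, ITGB5 and ITGAE lower. At the higher threshold, 7 of 50 members rose and 2 fell, where 6.62% and 7.07% of all genes tested did. With no minimum fold, 13 rose and 9 fell, against 29.9% and 28.6% of all genes. In all, 18.0% of the members passed the higher threshold and 44.0% the lower one, beside 13.7% and 58.5% of all genes. Of these, 4 collagens rose and 6 fell, 2 laminins rose and none fell, and 7 integrins rose and 3 fell. No laminin fell at an unadjusted p under 0.05 either, or by DESeq2, in this or the comparisons that follow. The median log2 fold change was -0.26 for the 23 collagens, 0.19 for the 8 laminins and 0.11 for the 19 integrins, beside 0.03 for all genes tested, and -0.41, 0.07 and -0.18 for those with at least 10 counts in every library. The integrin median thus changed sign with the members of low counts left out. Of the 7 members that rose at the higher threshold, LAMB2 was the only member with 10 counts in every library. COL28A1, LAMB4 and ITGB7 had 10 counts in lapatinib libraries only, so the filter favored their calls.

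LAMB2 (Entrez gene 3913, chr3:49121114-49133050 on GRCh38.p14) encodes the beta chain that takes the place of LAMB1 in laminin-521. It was at 2206, 2939 and 2387 normalized counts with NT siRNA in DMSO and at 5411, 6286 and 5699 in lapatinib. With FOXA1 siRNA it was at 2148, 2693 and 2413 in DMSO and at 5061, 5686 and 5369 in lapatinib. Every lapatinib library was above every DMSO library, by a log2 fold change of 1.23 ± 0.11 (adjusted p = 3.34e-05) with NT siRNA and 1.16 ± 0.08 (adjusted p = 1.34e-05) with FOXA1 siRNA. The gene listed as LAMB2L, a near copy of LAMB2, rose as well in control cells, from 11.1 ± 2.92 to 40.7 ± 1.29 normalized counts, and the counting may have split reads between the 2 genes. The 250 bases before the RefSeq start of LAMB2 are printed because it is the laminin with the largest response to lapatinib among those with 10 counts in every library (GRCh38.p14, chr3:49133051-49133300, minus strand). Capitals here and below mark GC boxes, the word GGGCGG read on either strand.
LAMB2: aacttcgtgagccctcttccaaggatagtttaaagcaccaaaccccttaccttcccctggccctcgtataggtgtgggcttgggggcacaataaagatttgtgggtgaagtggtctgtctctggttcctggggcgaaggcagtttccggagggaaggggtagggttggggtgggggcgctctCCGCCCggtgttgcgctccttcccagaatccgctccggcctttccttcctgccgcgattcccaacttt

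Among the other laminins, LAMA5, LAMB1, LAMB3, LAMA3 and LAMC1 had adjusted p of 0.0527, 0.723, 0.66, 0.143 and 0.304 with NT siRNA. LAMA5, the alpha chain of laminin-511 and laminin-521, had 11428 ± 1071 and 13569 ± 1827 normalized counts in DMSO and lapatinib, and it rose in a model with the replicate number as a block (adjusted p = 0.000597). It also rose by DESeq2 and without the libraries numbered 2 (adjusted p = 0.037 and 0.00397). LAMA3 fell with the block (adjusted p = 0.0426), without the libraries numbered 2 (log2 fold change -0.29, adjusted p = 0.0242) and without lapatinib replicate 2, so the absence of falling laminins did not hold in every fit. LAMB4, named after its values were seen, rose from 6.89, 6.94 and 4.79 to 20.2, 15.9 and 15.4 normalized counts, a level too low to compare by TPM.

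The collagens that fell included members of the fibrils and of the linkers that lie on them. COL5A1, the chain of collagen V that limits fibril width, was at 1472, 1417 and 1112 normalized counts in DMSO and 543, 536 and 428 in lapatinib with NT siRNA, a log2 fold change of -1.39 ± 0.13 (adjusted p = 4.88e-05). COL12A1, a fibril-associated collagen, was at 2396, 2231 and 1951 in DMSO and 1176, 1166 and 975 in lapatinib, a log2 fold change of -0.97 ± 0.10 (adjusted p = 7.06e-05). In both genes the groups were far apart relative to the spread of the replicates. COL1A1, the main chain of collagen I, fell with a log2 fold change of -0.65 ± 0.13 (adjusted p = 0.00279), and COL9A2, a chain of the fibril-associated collagen IX, with one of -0.41 ± 0.09 (adjusted p = 0.00466). COL5A2, the partner of COL5A1, had a log2 fold change of -0.22 ± 0.25 (adjusted p = 0.472), and with the block it fell too (adjusted p = 0.0173). COL13A1, a transmembrane collagen, and COL16A1, both named after their values were seen, also fell.

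Collagens of several kinds rose in control cells. COL4A5, a network chain of basement membranes, went from 395 ± 22.1 to 654 ± 114 normalized counts (0.75 ± 0.13, adjusted p = 0.00139), and COL6A1, a chain of the beaded filaments of collagen VI, from 83.9 ± 15.9 to 132 ± 17.2 (0.68 ± 0.19, adjusted p = 0.0126). COL28A1 was at 6.89, 5.95 and 6.71 normalized counts in DMSO and went to 55.9, 50.7 and 46.2 in lapatinib with NT siRNA, and from 6.99, 5.58 and 5.71 to 24.8, 32.7 and 22.5 with FOXA1 siRNA. Its lapatinib libraries were all above its DMSO libraries, with log2 fold changes of 2.96 ± 0.26 (adjusted p = 2.86e-05) and 2.12 ± 0.30 (adjusted p = 0.000451). COL24A1, a fibrillar collagen named after its values were seen, rose from 7.88, 13.9 and 13.4 to 15.4, 38.8 and 22.6 normalized counts, and the groups did not overlap.

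Among the integrins, ITGA2, the collagen-binding alpha 2 subunit, rose from 1339 ± 94.7 to 1954 ± 106 normalized counts (0.57 ± 0.07, adjusted p = 0.000191). Its partner ITGB1, the beta subunit shared by most matrix receptors, fell from 4163 ± 289 to 3132 ± 287 (-0.39 ± 0.08, adjusted p = 0.00326). ITGAV rose (0.23 ± 0.07, adjusted p = 0.0247), whereas ITGB5, with which it forms a vitronectin receptor, fell (-0.44 ± 0.05, adjusted p = 0.000129). In TPM, ITGAV was 0.781 times ITGB5 in DMSO and 1.26 times in lapatinib. ITGA9, an alpha subunit that binds tenascin and other ligands, was at 57.1, 70.4 and 47 and 129.6, 150.1 and 118 normalized counts without overlap (1.21 ± 0.19, adjusted p = 0.000803). ITGB4, the hemidesmosome subunit, and ITGB8 also rose, by 0.44 ± 0.15 and 0.90 ± 0.28. ITGA10 and ITGB7, named after their values were seen, rose at the higher threshold from at most 9.59 and 2.97 normalized counts in DMSO to at least 17.9 and 5.94 in lapatinib.

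ITGAE, the alpha E subunit that binds E-cadherin, fell from 356, 300.4 and 336 to 158, 176 and 191 normalized counts with NT siRNA and from 307, 262 and 259 to 108, 142 and 125 with FOXA1 siRNA (-0.89 ± 0.11, adjusted p = 0.000231, and -1.13 ± 0.13, adjusted p = 0.000168). An intronless gene listed as GSG2, the mitotic kinase haspin, lies within ITGAE on the opposite strand and shares 427 exon bases with it in GENCODE v44. GSG2 fell from 484 ± 67.4 to 83.6 ± 25 normalized counts with NT siRNA. The sources used here do not say whether strand entered the counting, and the part of GSG2 reads in the fall of ITGAE was not tested.

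The counts and some calls in control cells moved with the fit. With the replicate block, 14 members rose and 15 fell, against 33.8% and 32.1% of all genes, and without the libraries numbered 2 it was 12 and 15, against 32.3% and 33.1%. ITGA5 and ITGB6, with adjusted p of 0.0654 and 0.0566 without the block, fell with it (0.000238 and 0.00023), by DESeq2 (0.0188 and 0.0134) and without the libraries numbered 2 (0.000192 and 0.00031). COL4A2, at -0.30 ± 0.21 (adjusted p = 0.253), fell without the libraries numbered 2 (-0.61, adjusted p = 0.00353) or DMSO replicate 2 alone. COL18A1 had -0.24 ± 0.11 (adjusted p = 0.098), and its groups did not overlap. COL18A1 fell by DESeq2 (adjusted p = 0.0458), in a single model of all 12 samples and without DMSO replicate 1. At the higher threshold, the 2 members that fell became 4 without lapatinib replicate 2. The calls of COL6A1, ITGAV, ITGB4 and ITGB8 were lost in fits that left out single libraries. COL6A1 was lost without DMSO replicates 1 or 3 (log2 fold change 0.59 to 0.60, adjusted p = 0.0511). ITGAV was lost without DMSO replicates 1 or 2 or lapatinib replicates 1 or 3 (log2 fold change 0.14 to 0.23, adjusted p = 0.062 to 0.104). ITGB4 was lost without DMSO replicates 1 or 3 or lapatinib replicates 1 or 2 (log2 fold change 0.30 to 0.44, adjusted p = 0.0724 to 0.111). ITGB8 was lost without DMSO replicates 2 or 3 or lapatinib replicates 1 or 2 (log2 fold change 0.74 to 0.91, adjusted p = 0.0603 to 0.0775), by DESeq2 (adjusted p = 0.108) and without the libraries numbered 2 (0.112).

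**Figure D2:**
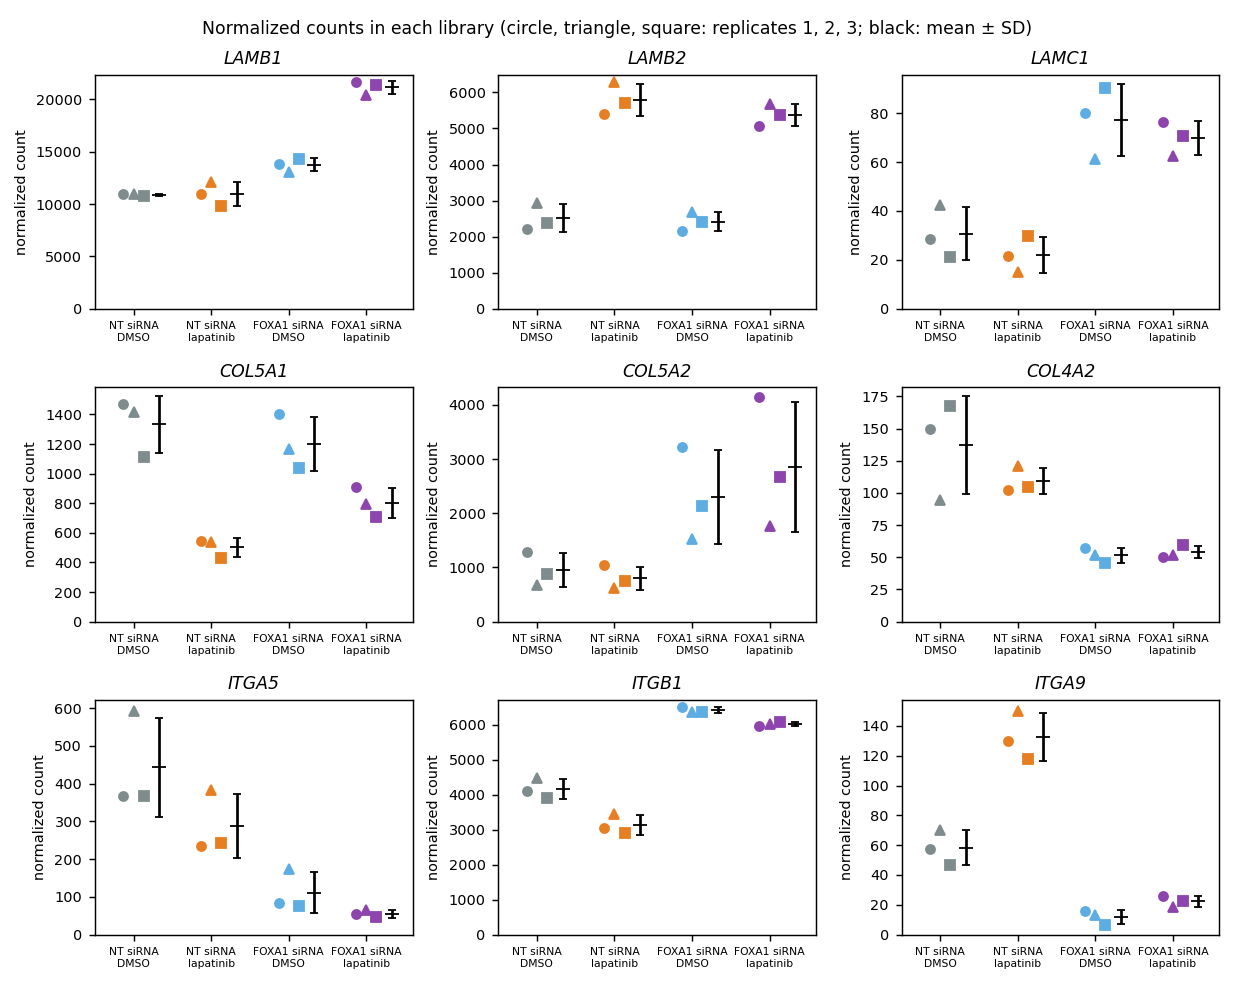
Normalized counts of 9 members in each of the 12 libraries, on linear axes from 0, with a circle, triangle and square for replicates 1, 2 and 3 and a black mark for the mean ± SD of each group. LAMB2 separates by drug, LAMC1, COL4A2, ITGA5 and ITGB1 separate by siRNA, and LAMB1 is highest with FOXA1 siRNA and lapatinib, between 20436 and 21640.

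The same drug comparison was made in cells with FOXA1 siRNA. There LAMB1, LAMA5 and LAMB3 rose beside LAMB2, COL12A1 and COL5A1 fell again, and ITGB5, ITGAE, ITGA5 and ITGB6 fell. At the higher threshold, 6 of 50 members rose and 3 fell, or 18.0% in all, where 4.96%, 5.13% and 10.1% of all genes did. Of the 6, COL28A1, ITGA10 and ITGB7 had 10 counts in this comparison in lapatinib libraries only, so the filter favored their calls here too. Another of the 6, ITGAM, named after its values were seen, reached 10 counts in neither of the groups compared. With FOXA1 siRNA it was at 0, 0.93 and 0 normalized counts in DMSO and 5.2, 1.92 and 2.05 in lapatinib. With no minimum fold, 16 rose and 9 fell, or 25 of the 50, against 28.5%, 28.7% and 57.2% of all genes. By family, 5 collagens rose and 5 fell, 4 laminins rose and none fell, and 7 integrins rose and 4 fell. The median log2 fold change was -0.07 for collagens, 0.62 for laminins and 0.16 for integrins, beside 0.01 for all genes tested.

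LAMB1 rose by 0.63 ± 0.05 (adjusted p = 1.57e-05), LAMA5 by 0.63 ± 0.06 (adjusted p = 5.98e-05) and LAMB3 by 0.59 ± 0.11 (adjusted p = 0.00181), each without overlap between the groups. LAMA5 was at 9763, 10915 and 9352 normalized counts in DMSO and 16131, 15079 and 14921 in lapatinib, and LAMB3 at 238, 195 and 222 and 317, 312 and 354. In both genes the lowest lapatinib library was well above the highest DMSO library. LAMA5 shares 244 exon bases with ADRM1 on the opposite strand, and ADRM1 went from 4988 ± 161 to 3650 ± 122, the other way. LAMC1 had a log2 fold change of -0.14 ± 0.19 (adjusted p = 0.55).

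Of the collagens, COL12A1, COL5A1 and COL1A1 fell, with log2 fold changes of -0.92 ± 0.16 (adjusted p = 0.00137), -0.57 ± 0.12 (adjusted p = 0.00447) and -0.33 ± 0.12 (adjusted p = 0.0492). COL4A5 and COL6A1 rose by 0.58 ± 0.13 (adjusted p = 0.00445) and 0.35 ± 0.12 (adjusted p = 0.0329). COL9A3, a chain of collagen IX, rose from 23, 25.1 and 24.7 to 84.7, 50.9 and 33.8 normalized counts (1.22 ± 0.34, adjusted p = 0.0137), with the lapatinib libraries widely spread and a log2 fold change of 0.80 without lapatinib replicate 1. It shares 155 exon bases with TCFL5 on the opposite strand, which was at 403 ± 65.6 and 476 ± 14.7. COL5A2 was at 3232, 1522 and 2143 in DMSO and 4146, 1764 and 2665 in lapatinib, where each replicate was higher in lapatinib than its own number in DMSO while the groups overlapped. Its log2 fold change was 0.32 ± 0.33 (adjusted p = 0.436), and with the replicate block it rose (adjusted p = 0.000108).

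Among the integrins, ITGA2 rose by 0.39 ± 0.08 (adjusted p = 0.00298), ITGB4 by 0.55 ± 0.11 (adjusted p = 0.0029) and ITGAV by 0.20 ± 0.06 (adjusted p = 0.0137). ITGB5 fell from 3586 ± 309 to 1840 ± 322 normalized counts (-0.95 ± 0.12, adjusted p = 0.000209), and ITGB6, the beta 6 subunit of another ITGAV receptor, from 2301 ± 139.8 to 1685 ± 213 (-0.44 ± 0.09, adjusted p = 0.00344). ITGA5 and ITGA9, both low after FOXA1 siRNA, had log2 fold changes of -0.99 ± 0.33 (adjusted p = 0.0311) and 0.90 ± 0.34 (adjusted p = 0.0494). ITGB1 had -0.08 ± 0.04 (adjusted p = 0.0841) and fell with the block (adjusted p = 0.0317). ITGA3 had 0.15 ± 0.13 (adjusted p = 0.323) and rose with the block (adjusted p = 0.00939), without the libraries numbered 2 (0.0297) and without DMSO replicate 2.

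In these cells the calls of COL1A1, COL6A1, ITGA5 and ITGA9 did not hold in every fit that left out 1 library. COL1A1 was lost without DMSO replicates 1 or 2 or lapatinib replicates 1 or 3 (log2 fold change -0.37 to -0.20, adjusted p = 0.0677 to 0.146). COL6A1 was lost without DMSO replicates 1, 2 or 3 or lapatinib replicates 1 or 3 (log2 fold change 0.32 to 0.36, adjusted p = 0.0575 to 0.0998), by DESeq2 (0.106) and without the libraries numbered 2 (0.0595). ITGA5 was lost without DMSO replicate 2 or lapatinib replicates 1 or 3 (log2 fold change -0.99 to -0.51, adjusted p = 0.0633 to 0.103), and its log2 fold change was -0.51 without DMSO replicate 2. ITGA9 was lost without DMSO replicates 2 or 3 or lapatinib replicates 1 or 3 (log2 fold change 0.62 to 0.98, adjusted p = 0.0746 to 0.145), by DESeq2 (0.134) and without the libraries numbered 2 (0.0553). The 3 members that fell at the higher threshold were COL13A1, COL27A1 and ITGAE, the first 2 named after their values were seen. This count was 1 without DMSO replicate 2 or lapatinib replicate 3 and 5 without lapatinib replicate 2. The 9 that fell at any size became 5 without lapatinib replicate 1, and all libraries numbered 2 left out gave 16 up and 10 down, against 29.1% and 29.8% of all genes.

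The next question was what depletion of FOXA1 did on its own. FOXA1 siRNA in DMSO lowered ITGA5, ITGA9, ITGAL and COL4A2 and raised COL5A2, LAMC1, ITGB1, COL12A1 and COL18A1. At the higher threshold, 3 of 50 members rose and 7 fell, where 4.00% and 2.80% of all genes did. With no minimum fold, 11 rose and 9 fell, against 21.0% in each direction and 42.1% in all. The 10 members at the higher threshold were 20.0% of the 50 beside 6.79% of all genes, but only 4 of the 10 had 10 counts in every library. Of the 7 that fell, COL24A1, COL2A1 and ITGAM had 10 counts with NT siRNA only, and without these 3 the number was 4, as it was by DESeq2. Among those that rose, COL14A1 had 10 counts with FOXA1 siRNA only. By family, 4 collagens rose and 5 fell, 3 laminins rose and none fell, and 4 integrins rose and 4 fell. The medians were -0.19 for collagens, 0.25 for laminins and -0.08 for integrins, beside -0.01 for all genes tested. The median size of the change in either direction was 0.58 among the 50 members and 0.26 among all genes tested. These sets differ in count level, since 29 of the 50 members and 12170 of the 14012 genes had 10 counts in every library. The medians were not matched for this, so they do not show that the members changed more than other genes of like counts. In lapatinib, FOXA1 siRNA raised 2 members and lowered 5 at the higher threshold, where 4.48% and 3.90% of all genes rose and fell and 8.38% did either. With no minimum fold, 12 rose and 10 fell there, against 22.2% and 21.8%, or 44.0% of the members and 44.0% of all genes, with 4 laminins up and none down, 5 collagens up and 4 down, and 3 integrins up and 6 down.

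ITGA5 (Entrez gene 3678, chr12:54395261-54419266), the fibronectin receptor subunit, was at 368, 594 and 367 normalized counts with NT siRNA and 83.9, 174 and 75.2 with FOXA1 siRNA in DMSO. In lapatinib it was at 235, 385 and 242 and 53.7, 66.3 and 46. The libraries numbered 2 were the highest of each group, and no FOXA1 siRNA library reached the NT siRNA libraries of the same treatment. The log2 fold change was -1.98 ± 0.33 (adjusted p = 0.00219) in DMSO and -2.38 ± 0.24 (adjusted p = 0.000121) in lapatinib. Its ligand fibronectin, FN1, was also lower, at 7952 ± 1327 and 2555 ± 397 normalized counts in DMSO (-1.63 ± 0.15, adjusted p = 0.000105). ITGB1, its only beta partner, was higher instead, at 4121, 4471 and 3897 and 6524, 6376 and 6379 in DMSO and 3037, 3454 and 2904 and 5977, 6033 and 6095 in lapatinib. Its groups were narrow and did not overlap, with log2 fold changes of 0.63 ± 0.06 (adjusted p = 0.000104) and 0.94 ± 0.06 (adjusted p = 2.12e-05). In TPM, ITGB1 was 10.7 times ITGA5 with NT siRNA and 65.7 times with FOXA1 siRNA in DMSO. The bases before the RefSeq start of ITGA5 are shown as those of the member with 10 counts in every library that FOXA1 siRNA lowered most (GRCh38.p14, chr12:54419267-54419516, minus strand).
ITGA5: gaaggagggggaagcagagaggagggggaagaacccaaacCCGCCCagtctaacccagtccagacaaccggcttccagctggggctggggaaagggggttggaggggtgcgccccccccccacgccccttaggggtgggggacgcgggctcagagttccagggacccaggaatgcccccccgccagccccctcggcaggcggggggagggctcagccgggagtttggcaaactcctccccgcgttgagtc

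ITGA9 was lower still, at 16, 13 and 6.66 normalized counts with FOXA1 siRNA in DMSO and 25.8, 18.3 and 22.5 in lapatinib, all below the NT siRNA libraries given above (-2.27 ± 0.32, adjusted p = 0.000893, and -2.58 ± 0.19, adjusted p = 2.92e-05). ITGAL, the alpha subunit of the leukocyte receptor LFA-1, was at 40.4, 71.4 and 42.2 with NT siRNA and 18, 23.3 and 20.0 with FOXA1 siRNA in DMSO and at 49.9, 75.5 and 48.2 and 7.23, 16.3 and 18.4 in lapatinib, again without overlap (-1.31 ± 0.29, adjusted p = 0.00789, and -2.05 ± 0.34, adjusted p = 0.00173). ITGB2, its beta partner, passed no test between groups, with 105 ± 22.6 and 111 ± 16.9 normalized counts in DMSO. The leukocyte markers PTPRC and CD3E did not exceed 0.44 TPM in any library. ITGB6 and ITGA3, the laminin receptor subunit, rose with FOXA1 siRNA in DMSO (0.49 ± 0.13, adjusted p = 0.0208, and 0.54 ± 0.17, adjusted p = 0.0361) and in lapatinib (0.45 ± 0.13, adjusted p = 0.0228, and 0.58 ± 0.13, adjusted p = 0.00653). ITGAM, named after its values were seen, had 10 counts in a single library, with NT siRNA in DMSO, so the filter favored its call there, which DESeq2 did not make. In DMSO it was at 11.8, 7.93 and 4.79 normalized counts with NT siRNA and 0, 0.93 and 0 with FOXA1 siRNA.

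COL4A1 and COL4A2, which together form the main network of basement membranes, are transcribed away from each other from neighbouring starts on chromosome 13. COL4A2 (Entrez gene 1284, chr13:110307284-110513209) was at 149.7, 94.2 and 168 normalized counts with NT siRNA and 56.9, 52.1 and 45.7 with FOXA1 siRNA in DMSO, and at 102, 121 and 105 and 50.6, 51.9 and 59.4 in lapatinib. No FOXA1 siRNA library reached an NT siRNA library, and the log2 fold changes were -1.40 ± 0.23 (adjusted p = 0.00198) and -1.03 ± 0.15 (adjusted p = 0.000942). COL4A1 was scarce, between 0.994 and 23 normalized counts, its groups overlapped, and its log2 fold changes were -0.56 ± 0.57 (adjusted p = 0.466) and -0.92 ± 0.74 (adjusted p = 0.343). The 126 bases between the 2 starts are shown because these neighbours were at such different levels, 5.70 to 11.4 times more COL4A2 than COL4A1 by mean TPM in the 4 groups (GRCh38.p14, chr13:110307158-110307283, the strand of COL4A2).
COL4A1-COL4A2: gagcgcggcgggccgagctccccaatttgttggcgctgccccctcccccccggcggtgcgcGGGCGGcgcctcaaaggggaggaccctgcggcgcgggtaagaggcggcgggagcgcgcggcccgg

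Other collagens rose with FOXA1 siRNA. COL5A2 was at 1290, 680.1 and 881 normalized counts with NT siRNA and 3232, 1522 and 2143 with FOXA1 siRNA in DMSO (1.28 ± 0.30, adjusted p = 0.00972), and at 1040, 625 and 749 and 4146, 1764 and 2665 in lapatinib (1.82 ± 0.31, adjusted p = 0.00184). Replicate 1 was the highest and replicate 2 the lowest in every group, and the groups did not overlap. COL5A1 had a log2 fold change of -0.14 ± 0.13 (adjusted p = 0.425) in DMSO, and with the replicate block it fell (adjusted p = 0.0365), so the 2 partner chains of collagen V moved apart there. In TPM, COL5A2 was 0.923 times COL5A1 with NT siRNA and 2.49 times with FOXA1 siRNA in DMSO, and 2.08 and 4.57 times in lapatinib. COL18A1, a basement membrane collagen that releases endostatin, rose from 3390 ± 588 to 5452 ± 549 in DMSO (0.69 ± 0.13, adjusted p = 0.00306) and from 2826 ± 54.4 to 4883 ± 220.5 in lapatinib (0.78 ± 0.05, adjusted p = 1.55e-05). It shares 1563 exon bases with SLC19A1 on the opposite strand, which was at 1638 ± 32.9 and 1557 ± 76.7 in DMSO. In lapatinib SLC19A1 rose with FOXA1 siRNA from 762 ± 38.7 to 1008 ± 73.0 (0.40 ± 0.08, adjusted p = 0.00336). The part of SLC19A1 reads in the rise of COL18A1 was not tested. COL12A1 rose by 0.66 ± 0.12 (adjusted p = 0.00255) and 0.71 ± 0.15 (adjusted p = 0.00578).

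COL9A2 fell in DMSO (-0.80 ± 0.08, adjusted p = 0.000156), as did COL4A5 (-0.29 ± 0.08, adjusted p = 0.027), which fell in lapatinib too (-0.45 ± 0.16, adjusted p = 0.0494). COL28A1 was lower with FOXA1 siRNA in lapatinib (-0.93 ± 0.22, adjusted p = 0.00868), where the NT siRNA libraries were at 55.9, 50.7 and 46.2 normalized counts and those with FOXA1 siRNA at 24.8, 32.7 and 22.5. COL24A1 and COL2A1, named after their values were seen, were close to the limit of detection with FOXA1 siRNA. COL2A1 had 10 counts in a single library, with NT siRNA in DMSO, and COL24A1 only with NT siRNA, so the filter favored their calls in DMSO, and DESeq2 made neither. COL24A1 was between 7.88 and 13.9 normalized counts with NT siRNA and at most 1.90 with FOXA1 siRNA in DMSO, and COL2A1 between 4.96 and 9.59 and at most 0.999. COL14A1, also named after its values were seen, rose in DMSO from 1.97, 6.94 and 6.71 to 13, 16.7 and 14.3. It had 10 counts with FOXA1 siRNA only, so the filter favored this call too.

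The laminin chain with the largest rise among those called was LAMC1 (Entrez gene 3915, chr1:183023420-183145592). It was at 28.6, 42.6 and 21.1 normalized counts with NT siRNA and 79.9, 61.4 and 90.4 with FOXA1 siRNA in DMSO (1.33 ± 0.28, adjusted p = 0.00606), and at 21.4, 14.9 and 29.7 and 76.4, 62.5 and 70.6 in lapatinib (1.65 ± 0.26, adjusted p = 0.00121). Each FOXA1 siRNA library was above each NT siRNA library, yet the TPM stayed at 0.71 or less. LAMA3 rose from 304 ± 22.8 to 424 ± 34.8 in DMSO (0.49 ± 0.10, adjusted p = 0.00488) and again in lapatinib (0.80 ± 0.11, adjusted p = 0.000593). LAMB3 rose in lapatinib (0.64 ± 0.13, adjusted p = 0.00468) and had 0.16 ± 0.18 (adjusted p = 0.506) in DMSO, where it rose without the libraries numbered 2 (0.46, adjusted p = 0.00762) or NT siRNA replicate 2 alone, and its interaction had an adjusted p of 0.235. The bases before the RefSeq start of LAMC1 are printed for comparison with those of LAMB1 below, its partner chain (GRCh38.p14, chr1:183023170-183023419, plus strand).
LAMC1: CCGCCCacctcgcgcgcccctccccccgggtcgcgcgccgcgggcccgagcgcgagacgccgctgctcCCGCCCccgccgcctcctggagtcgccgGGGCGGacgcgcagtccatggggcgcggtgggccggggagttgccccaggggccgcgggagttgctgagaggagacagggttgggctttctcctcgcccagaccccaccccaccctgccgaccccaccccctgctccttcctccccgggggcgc

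With the replicate block in DMSO, 12 members rose and 18 fell, against 29.3% and 30.0% of all genes, and without the libraries numbered 2 it was 13 and 14, against 26.4% and 27.1%. LAMA5 fell in DMSO with the block (adjusted p = 0.000169), without the libraries numbered 2 (0.0048) and without FOXA1 siRNA replicate 2, and LAMB2 fell in lapatinib with the block (0.00633). COL6A1 rose in DMSO and COL4A1 fell in lapatinib without the libraries numbered 2 (0.0444 and 0.0462). The block also added COL1A1, ITGAE, ITGAV and ITGB4 in DMSO (0.0354, 0.015, 0.0151 and 0.00178) and COL9A2, ITGAV and ITGB4 in lapatinib (0.00734, 0.00578 and 0.00263) to those that fell. ITGB8 in DMSO and LAMA5 in lapatinib were added to those that rose (0.0299 and 0.0145). In lapatinib, the 2 members that rose at the higher threshold became 4 without replicate 2 of NT siRNA in lapatinib. In DMSO, the 3 that rose became 1 without replicate 1 of FOXA1 siRNA, and the 11 that rose at any size became 7 without replicate 2 of FOXA1 siRNA or replicate 1 of NT siRNA.

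Some of these calls were near the threshold and were lost when any of several libraries was left out, mostly at a similar fold change. In DMSO, ITGA2 (called at 0.20 ± 0.07, adjusted p = 0.0464) was lost without FOXA1 siRNA replicates 1, 2 or 3 or NT siRNA replicates 1 or 2 (log2 fold change 0.15 to 0.22, adjusted p = 0.0591 to 0.159). ITGA3 was lost there without FOXA1 siRNA replicates 1 or 2 or NT siRNA replicates 1 or 3 (log2 fold change 0.39 to 0.59, adjusted p = 0.0611 to 0.112). ITGB6 was lost there without FOXA1 siRNA replicates 2 or 3 or NT siRNA replicates 1 or 3 (log2 fold change 0.38 to 0.51, adjusted p = 0.0521 to 0.0748). COL4A5 was lost there without FOXA1 siRNA replicates 2 or 3 or NT siRNA replicates 1 or 3 (log2 fold change -0.27 to -0.25, adjusted p = 0.0608 to 0.0958). In lapatinib, COL4A5 was lost without FOXA1 siRNA replicates 2 or 3 or NT siRNA replicates 1 or 3 (log2 fold change -0.42 to -0.34, adjusted p = 0.13 to 0.161), and ITGB6 without FOXA1 siRNA replicates 1 or 2 or NT siRNA replicates 1 or 3 (log2 fold change 0.37 to 0.43, adjusted p = 0.0688 to 0.0783). ITGAE fell in lapatinib with a log2 fold change of -0.49 ± 0.14 and was lost without FOXA1 siRNA replicates 1 or 3 or NT siRNA replicate 3 (log2 fold change -0.49 to -0.40, adjusted p = 0.0629 to 0.0809).

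**Figure D3:**
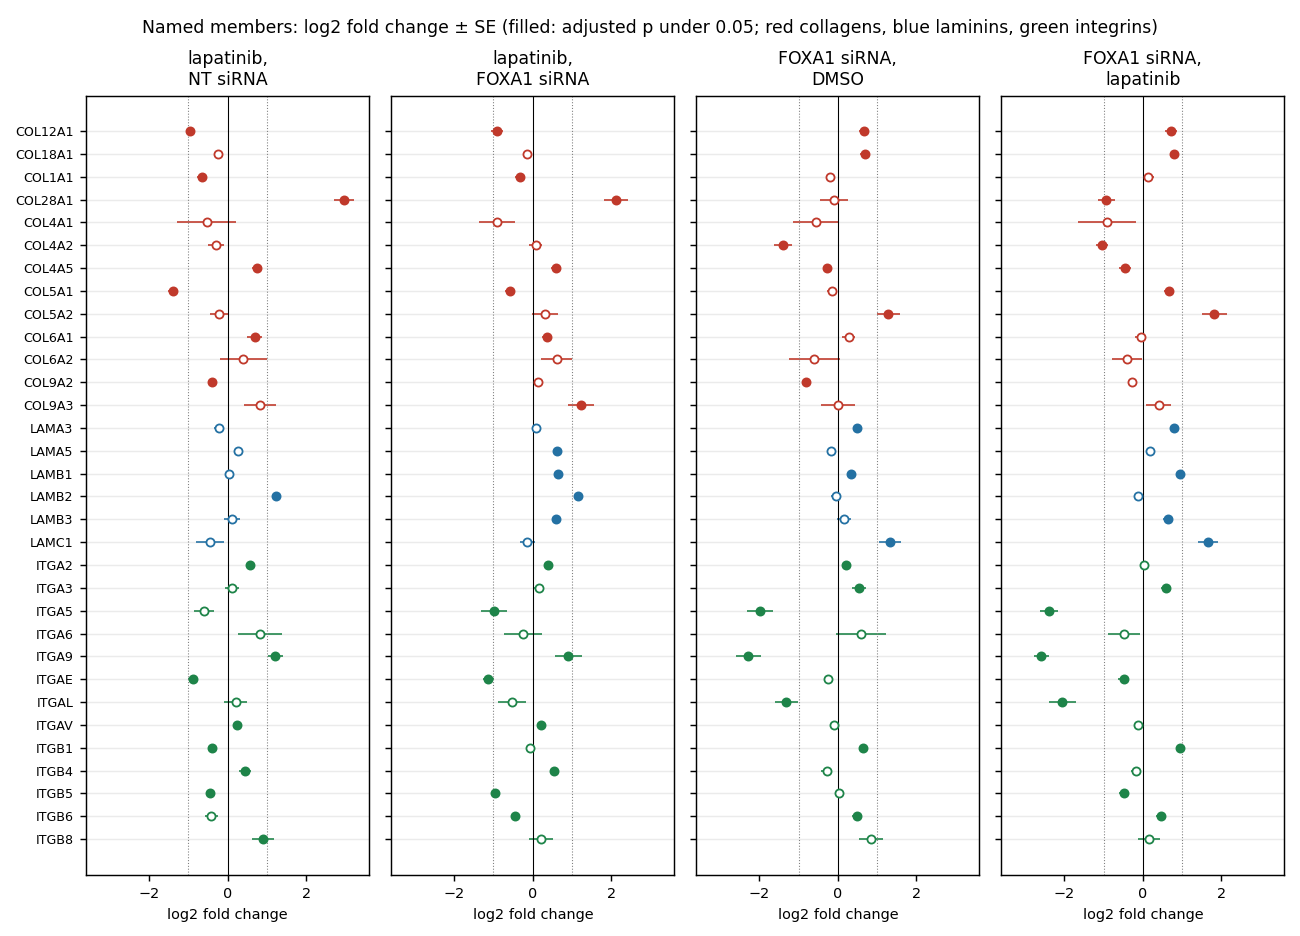
Log2 fold changes (x axis) of 32 of the 33 named members in the 4 comparisons of 2 groups, with bars for the standard error, filled points for an adjusted p under 0.05 and dotted lines at 1 and -1. LAMB2 rises in both drug comparisons, and ITGA5, ITGA9, ITGAL and COL4A2 lie below -1 in both siRNA comparisons.

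The last comparison asked whether the response to lapatinib differed between FOXA1-depleted and control cells, as the interaction of siRNA and drug over all 12 samples. LAMB1, COL5A1 and COL9A2 had a response that differed, each with a higher log2 response under FOXA1 siRNA than under NT siRNA, and no other member passed. These are 3 of 50 members or 6.0%, where 7.19% of all genes passed (3.99% upward). With FOXA1 siRNA and lapatinib, COL5A1 and COL9A2 still had lower mean normalized counts than with NT siRNA in DMSO (805 against 1334, and 351 against 569). No member passed downward by edgeR, while 3.20% of all genes did, and 1 did so at an unadjusted p under 0.05 and by DESeq2, ITGB5 in both. With the replicate block, 9 members passed upward and 1 downward, against 11.1% and 9.22% of all genes, and without the libraries numbered 2 it was 6 and 1, against 10.2% and 7.76%. The medians of the interaction were 0.10 for collagens, 0.33 for laminins and -0.16 for integrins, beside 0.01 for all genes tested.

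LAMB1 (Entrez gene 3912, chr7:107923799-108003161), the beta chain of laminin-511, was the most abundant member. With NT siRNA it was at 10959, 10938 and 10739 normalized counts in DMSO and 10959, 12131 and 9795 in lapatinib, and the groups overlapped. With FOXA1 siRNA it was at 13788, 13100 and 14341 in DMSO and 21640, 20436 and 21335 in lapatinib, and these groups were far apart. The log2 response to lapatinib was 0.03 ± 0.07 (adjusted p = 0.723) with NT siRNA and 0.63 ± 0.05 with FOXA1 siRNA, and the difference was 0.61 ± 0.09 (adjusted p = 0.00277). FOXA1 siRNA raised it by 0.35 ± 0.04 (adjusted p = 0.000459) in DMSO and 0.94 ± 0.07 (adjusted p = 3.94e-05) in lapatinib. DLD shares 300 exon bases with LAMB1 on the opposite strand, and DLD was at 9270 ± 459 and 8188 ± 271 in the 2 groups with FOXA1 siRNA. The call of LAMB1 held in every fit that was run, those without 1 library included. The bases before its RefSeq start, with 4 GC boxes beside 3 in LAMC1, are given as those of the member whose drug response differed most clearly between the siRNAs (GRCh38.p14, chr7:108003162-108003411, minus strand).
LAMB1: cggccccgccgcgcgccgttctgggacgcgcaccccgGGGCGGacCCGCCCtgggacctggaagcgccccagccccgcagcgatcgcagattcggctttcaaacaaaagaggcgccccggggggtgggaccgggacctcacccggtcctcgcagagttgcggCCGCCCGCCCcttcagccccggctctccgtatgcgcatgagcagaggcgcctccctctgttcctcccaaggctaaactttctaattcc

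COL5A1 was at 1401, 1164 and 1040 normalized counts with FOXA1 siRNA in DMSO and 912, 792 and 710.2 in lapatinib, so its fall was smaller than with NT siRNA, where all lapatinib libraries were below those with FOXA1 siRNA. The difference in the log2 response was 0.83 ± 0.20 (adjusted p = 0.0272), and it was lost without FOXA1 siRNA DMSO replicates 2 or 3, FOXA1 siRNA lapatinib replicate 1, NT siRNA DMSO replicate 1 or NT siRNA lapatinib replicate 3 (log2 fold change 0.73 to 0.81, adjusted p = 0.0527 to 0.0736). COL9A2 was at 557, 579 and 569 and 389, 470.0 and 403 with NT siRNA in DMSO and lapatinib, and at 323, 344 and 304 and 323, 367 and 363 with FOXA1 siRNA. It fell in the first pair and overlapped in the second, a difference of 0.55 ± 0.13 (adjusted p = 0.0221), which was lost without FOXA1 siRNA DMSO replicates 1 or 3, FOXA1 siRNA lapatinib replicate 3, NT siRNA DMSO replicate 3 or NT siRNA lapatinib replicates 1 or 3 (log2 fold change 0.50 to 0.55, adjusted p = 0.0511 to 0.0618). ITGB1 and ITGB5 came closest among the others, at 0.32 ± 0.09 (adjusted p = 0.0505) and -0.50 ± 0.14 (adjusted p = 0.0504). With the block they passed, as they did by DESeq2 and without the libraries numbered 2 (block adjusted p = 0.00655 and 0.00468), and LAMA5, COL5A2 and COL1A1 passed with the block (0.00579, 0.00324 and 0.0428). LAMA5 and COL1A1 also passed without the libraries numbered 2 (0.00278 and 0.0108). COL16A1 and ITGAM, named after their values were seen, completed the 10 that passed with the block.

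**Figure D4:**
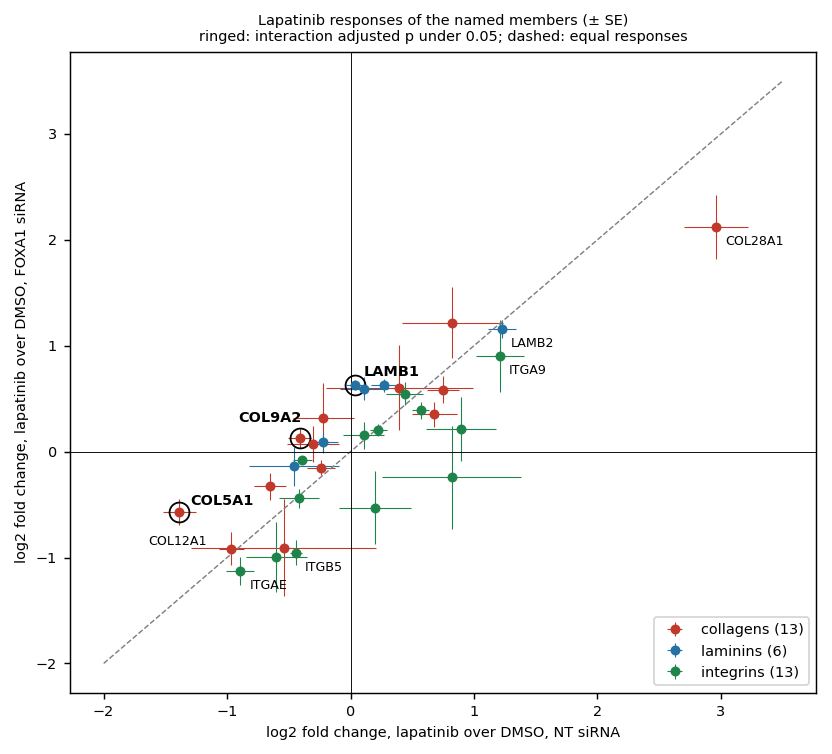
Log2 response to lapatinib with NT siRNA (x axis) and with FOXA1 siRNA (y axis) for 32 of the 33 named members, where the dashed line marks equal responses, bars are standard errors and rings mark an interaction with an adjusted p under 0.05. The axes use different libraries, and the ringed LAMB1 (0.03 and 0.63), COL5A1 (-1.39 and -0.57) and COL9A2 (-0.41 and 0.13) lie off the line.

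Promoter sequences in the RefSeq table were found for 56 of the 80 members and for 37 of the 50 tested, with none for COL5A2, ITGA9 or ITGAL. The words GTAAACA and GTCAACA, which forkhead factors bind, were searched on both strands in the 250 bases before the start. Either word was present in 4.84% of all 35116 promoters and in none of the 56. The GC box was in 42.6% of all promoters, in 31 of the 56 and in 23 of the 37. A match or its absence describes these letters in this window, since distal elements were not examined.

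Genes that make, hold or read the matrix were examined from lists written from general knowledge. Of 27 genes for collagen folding, modification and crosslinking, 21 were tested, and with NT siRNA 3 rose and 12 fell with lapatinib, where 29.9% and 28.6% of all genes did, at a median log2 fold change of -0.57 beside 0.03 for all genes tested. The lysyl oxidases LOXL1, LOXL2 and LOXL3, which crosslink collagen, fell with log2 fold changes of -1.91 ± 0.25 (adjusted p = 0.00025), -1.70 ± 0.14 (adjusted p = 2.08e-05) and -2.53 ± 0.34 (adjusted p = 0.000275), and the lysyl hydroxylase PLOD2 with one of -0.82 ± 0.06 (adjusted p = 1.13e-05). With FOXA1 siRNA, lapatinib raised 5 and lowered 11, beside 28.5% and 28.7% of all genes. FOXA1 siRNA raised 6 and lowered 5 in DMSO, beside 21.0% each way, and raised 4 and lowered 5 in lapatinib, beside 22.2% and 21.8%. LOXL2 was at 388 ± 37.4 and 117 ± 17.5 normalized counts with NT siRNA in DMSO and lapatinib and at 529 ± 83.4 and 361 ± 65 with FOXA1 siRNA. Its response to lapatinib differed between the siRNAs (1.17 ± 0.22, adjusted p = 0.00923). In all, the interaction passed upward in 4 of the 21 and downward in 0, beside 3.99% and 3.20% of all genes.

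Of 20 other basement membrane and adhesive matrix genes, 16 were tested. Lapatinib raised 5 and lowered 4 with NT siRNA (29.9% and 28.6% of all genes) and raised 6 and lowered 1 with FOXA1 siRNA (28.5% and 28.7%). FOXA1 siRNA raised 3 and lowered 6 in DMSO (21.0% each way) and raised 5 and lowered 3 in lapatinib (22.2% and 21.8%). NTN4, a laminin-related netrin, rose in all 4, from 1433 ± 274 normalized counts with NT siRNA in DMSO to 6606 ± 1065 with FOXA1 siRNA in lapatinib. HSPG2 (perlecan) fell with lapatinib in control cells (-0.64 ± 0.13, adjusted p = 0.00276) and with FOXA1 siRNA in DMSO (-0.73 ± 0.14, adjusted p = 0.00428). AGRN (agrin) fell with FOXA1 siRNA in DMSO (-0.45 ± 0.05, adjusted p = 0.000296) and lapatinib (-0.41 ± 0.04, adjusted p = 0.000138). The interaction passed upward in 1 of the 16, EFEMP1, and downward in 0, beside 3.99% and 3.20% of all genes.

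All 33 genes of the integrin adhesion complex and of other laminin or collagen receptors were tested. Lapatinib raised 14 and lowered 9 with NT siRNA, beside 29.9% and 28.6% of all genes, and raised 14 and lowered 5 with FOXA1 siRNA, beside 28.5% and 28.7%. BCAM, a receptor of laminin alpha 5, was at 14623 ± 1641 normalized counts in DMSO and 30067 ± 1674 in lapatinib with NT siRNA and rose (1.06 ± 0.09, adjusted p = 2e-05), and the syndecan SDC4 from 6120 ± 310.2 to 13587 ± 882 (1.17 ± 0.06, adjusted p = 3.8e-06). The 9 that fell with NT siRNA were TLN2, FERMT1, FERMT2, FERMT3, VCL, LIMS2, PARVB, ZYX and ACTN1. At the higher threshold with NT siRNA, 3 rose (PTK2B, BCAM and SDC4) and 3 fell, beside 6.62% and 7.07% of all genes. Those that fell were FERMT1, LIMS2 and PARVB, with log2 fold changes of -1.56, -1.31 and -1.04, FERMT1 at means of only 9.77 and 3.16 normalized counts. FOXA1 siRNA raised 9 and lowered 8 in DMSO and raised 12 and lowered 10 in lapatinib, beside 21.0% each way and 22.2% and 21.8% of all genes. PXN (paxillin), an adaptor of focal adhesions, fell from 2968 ± 164 to 1357 ± 120.0 in DMSO (-1.12 ± 0.08, adjusted p = 3.05e-05), whereas CD44, a hyaluronan receptor, rose from 69 ± 8.38 to 235 ± 30.0 (1.78 ± 0.15, adjusted p = 7.8e-05) and LIMS1 from 576 ± 57.6 to 1394 ± 131 (1.28 ± 0.10, adjusted p = 4.89e-05). The interaction passed upward in 3 of the 33 (VCL, ACTN1 and TNS3) and downward in 2 (DDR1 and DST), beside 3.99% and 3.20% of all genes. The 4 comparisons of 2 groups share groups of samples, so values for a gene in different comparisons are not independent.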

How the data were processed

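RNAseq of 12 SKBR-3 samples, 3 in each of 4 groups taken from the labels, was analyzed from the files that the authors deposited. For each gene the authors deposited an expected count (an estimate of its reads), a TPM value and a mean transcript length. By the methods, reads were aligned with STAR to hg38 and quantified with Salmon, whereas the processing notes in the labels name RSEM, R 3.2.2, DESeq and DESeq2 1.12.3. The labels give 2 different library kits, and use of strand in the counting is not given in the sources used here, so genes that overlap are uncertain.

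Expected counts were rounded to whole numbers. Genes that reached 10 counts in 1 of the 12 samples or more were tested with edgeR 4.0.16 (R 4.3.3) by its quasi-likelihood test after TMM normalization, each comparison on its own 6 samples and the interaction on all 12, with Benjamini-Hochberg adjustment over all 14012 genes. Normalized counts are counts scaled by TMM to the average depth of the 12 libraries. The standard error of a log2 fold change is its size over the square root of F. Under 3 counts a gene was treated as not detectable, which covers counting error only. Locations and promoters are from RefSeq (GRCh38.p14) and overlaps of exons from GENCODE v44.

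Alternatives were normalization by RLE or by the upper quartile, DESeq2 1.42.0, no filter, at least 10 counts in every sample or in 1 of the 6, a single model of all 12 samples, a block for the replicate number, and leaving out each sample. Across groups, same-numbered samples had correlated deviations from the means of their groups (r = 0.24 to 0.62 over 18 pairs, mean 0.39), so the numbers may pair the samples. The mean of -0.18 for 36 pairs with different numbers is largely set by centring each group on its mean and adds no separate evidence. The main fits did not use this pairing, and fits with the block are given beside them. The procedures were tested on simulated data. Exact permutation tests of 3 against 3 cannot give a p below 0.1 and were not used.

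The members, lists and alternatives were chosen with earlier results of these data known. The genes named were members past the higher threshold in a comparison of 2 groups or with an adjusted p under 0.05 for the interaction, with a mean of at least 50 normalized counts in 1 group, the 6 members of each family highest in TPM, and the tested chains of the main complexes of collagens I, IV, V and VI, laminin-332, laminin-511 and laminin-521 and their integrins. Of the named members, 1 is not reported here. The deposited FPKM and normalized values were not used. Tables and plots were made in Python 3.11.15 with numpy 2.4.6, pandas 2.3.3 and matplotlib 3.10.9.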

Additional observations from a re-analysis of the deposited data

Results flagged for a closer look

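In 3 members the response to lapatinib differed between the siRNAs by the test of the interaction over all 12 samples (edgeR, Benjamini-Hochberg adjusted over 14012 genes). For LAMB1 the difference in the log2 response was 0.61 ± 0.09 (SE, adjusted p = 0.00277), from log2 fold changes of 0.03 ± 0.07 (NT siRNA) and 0.63 ± 0.05 (FOXA1 siRNA). For COL5A1 it was 0.83 ± 0.20 (adjusted p = 0.0272), from -1.39 ± 0.13 and -0.57 ± 0.12. For COL9A2 it was 0.55 ± 0.13 (adjusted p = 0.0221), from -0.41 ± 0.09 and 0.13 ± 0.09. With the block for the replicate number, the 3 adjusted p values were 0.000494, 4.28e-05 and 0.00219. Fits without 1 library gave log2 differences of 0.54 to 0.68 for LAMB1, 0.73 to 0.96 for COL5A1 and 0.50 to 0.64 for COL9A2. Groups of 3 samples were not tested for single outlying samples.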

How the results depend on the processing

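No named gene changed direction while past the threshold under any alternative run. Of the 33 named genes, 16, 19, 16 and 19 passed an adjusted p of 0.05 in the 4 comparisons (lapatinib with NT siRNA and with FOXA1 siRNA, FOXA1 siRNA in DMSO and in lapatinib) and 12, 15, 12 and 16 passed under all alternatives, and for the interaction it was 3 and 1. The replicate block lost none of these calls and changed no reported call of a named gene other than those given with the results. The call of ITGA2 after FOXA1 siRNA in DMSO was lost without the filter and in the model of all samples, and that of COL4A5 after FOXA1 siRNA in lapatinib with RLE or upper-quartile scaling and with 10 counts required in every sample. With at least 10 counts required in every sample, lapatinib with NT siRNA raised 1 and lowered 1 of the members at the higher threshold and raised 7 at any size, lapatinib with FOXA1 siRNA raised 1 and 9, and FOXA1 siRNA lowered 2 and 4 in each treatment. Counting only such members within the original fit, also chosen after seeing the data, gave the same except that lapatinib with FOXA1 siRNA lowered 1 at the higher threshold and FOXA1 siRNA in lapatinib lowered 5 at any size. DESeq2 gave 4 members lowered by FOXA1 siRNA in DMSO at the higher threshold in place of 7. The interaction had 1 member downward in place of 0 with RLE, DESeq2, no filter, 10 counts in every sample, the block and without the libraries numbered 2. The block gave 15 members lowered by lapatinib with NT siRNA, 18 lowered by FOXA1 siRNA in DMSO and 9 upward in the interaction. The shares of all genes moved too, to 32.1%, 30.0% and 11.1% from 28.6%, 21.0% and 3.99% without the block. Leaving out all libraries numbered 2, likewise chosen after seeing the data, gave 4 lowered by lapatinib with NT siRNA at the higher threshold and 15 at any size, 14 lowered by FOXA1 siRNA in DMSO, 4 raised by FOXA1 siRNA in lapatinib at the higher threshold and 6 upward in the interaction. In the same order, the shares of all genes were 7.65%, 33.1%, 27.1%, 4.95% and 10.2%. Leaving out 1 sample, or the libraries numbered 2 together, gave ranges of 2 to 4 lowered by lapatinib with NT siRNA at the higher threshold, 1 to 5 and, at any size, 5 to 10 lowered by lapatinib with FOXA1 siRNA, 1 to 4 and, at any size, 7 to 13 raised by FOXA1 siRNA in DMSO, 2 to 4 raised by FOXA1 siRNA in lapatinib at the higher threshold, and 1 to 6 upward and 0 to 1 downward in the interaction. The cause was not tested. For the other alternatives the shares of all genes are not given, so those counts do not set the members apart from other genes. Ratios of the summed TPM of the families moved by less than the spread between replicates with normalized counts per kilobase in place of TPM.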
